A study of Mus musculus with 6 samples.

Results

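WNT ligands, receptors and modulators were followed in CTIP2:GFP+ and CTIP2:GFP- cells sorted from mouse embryonic stem cell-derived cortical cultures. The set was listed by gene symbol and comprises 19 WNT ligands, 12 Frizzled receptors and LRP co-receptors, 9 secreted inhibitors, 5 intracellular transducers and transcription factors, and the 2 feedback targets Axin2 and Lef1. Of the 47 genes, 46 had a probe set annotated with 1 symbol, among 19938 genes so represented on the array. Tcf7 was not analysed here. The cells carried a GFP reporter knocked in behind Ctip2 (Bcl11b), a transcription factor of subcerebral projection neurons, in a 129SVEV embryonic stem cell line that kept the neomycin cassette. The sources used here do not say whether the line is 1 clone. The knock-in cells grew as floating aggregates by the SFEBq method. SB-431542, a TGF-beta receptor inhibitor, and WNT-C59, a WNT inhibitor, were supplied during the first days and were left out of the medium used later. GFP+ and GFP- cells were sorted on day 11, day 12 and day 13, so both fractions share the line and the inhibitor exposure. Expression was measured on 6 arrays of the GeneChip Mouse Gene 1.0 ST type, 1 for each fraction on each day.

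WNT proteins are secreted lipid-modified ligands that bind Frizzled receptors together with the co-receptors Lrp5 and Lrp6. In the canonical branch, binding stops a complex built around Axin and APC from degrading beta-catenin, which then enters the nucleus and acts with TCF/LEF factors on target genes such as Axin2. Secreted Frizzled-related proteins, Dickkopf proteins, Wif1 and the enzyme Notum act outside the cell to restrain the pathway. In the embryonic cortex, WNT signals from the cortical hem and from progenitors are known to act on patterning, on progenitor growth and on neuronal differentiation.

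The sort was read from the reporter gene itself and from cell type markers. Bcl11b was higher in GFP+ cells (log2 difference 1.87 with a standard error, SE, of 0.19, adjusted p = 0.025 from limma). Of 10 radial glial markers, 6 were lower and 0 higher past the test in GFP+ cells, and the mean log2 signal of that list was 7.28 to 7.85 on the GFP+ arrays and 8.71 to 9.21 on the GFP- arrays. Of 10 neuronal markers, 4 were higher and 0 lower, with list means of 9.09 to 9.33 and 7.27 to 8.30. Over all genes 0.567% passed as lower and 0.797% as higher. Among markers of cortical hem and choroid plexus 0 of 9 passed, of mesenchyme or feeder fibroblasts 0 of 8, of surface epithelium and endoderm 0 of 7, of pluripotent cells 0 of 4 and of telencephalon 0 of 3. At those shares, 0 calls in so short a list does not show that a cell type was absent. At an unadjusted p under 0.05, 3 of the hem and choroid plexus markers were lower, 1 mesenchymal marker was higher and 1 lower, and the other lists held 0 genes. Over all genes 5.96% were lower and 9.58% higher at that level. Of 5 antihem markers, Dbx1 was lower in GFP+ cells (-2.51) and 4 did not pass, with Nrg3 at 0.82, Tgfa at 0.17, and Nrg1 and Fgf7 at 0.01. Their median was 0.01, and at an unadjusted p under 0.05 1 was higher and 1 lower. Pearson's correlation between arrays across probe sets was 0.863 to 0.990, and the GFP- array of day 13 had the narrowest spread of signals (SD 1.11).

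Some WNT receptors, inhibitors and transcription factors were lower in GFP+ cells, and Wnt7b was the one ligand among them. Differences are log2 signals of GFP+ less those of GFP- cells, averaged over the 3 days, and a gene passed at an adjusted p under 0.05 from limma with Benjamini-Hochberg adjustment over all genes. The 7 members that passed were Wnt7b, Fzd7, Fzd8, Sfrp1, Sfrp2, Tcf7l1 and Tcf7l2, and all 7 were also over 2-fold lower. No member was higher, and 39 did not pass. At an unadjusted p under 0.05, 12 members were lower and 2 were higher, against 5.96% and 9.58% of all genes. Over all genes 0.567% passed as lower and 0.797% as higher, while 1.02% were over 2-fold lower and 1.97% over 2-fold higher. By role, the lower calls were 1 of 19 ligands, 2 of 12 receptors and co-receptors, 2 of 9 secreted inhibitors, 2 of 4 measured transducers and transcription factors, and 0 of 2 feedback targets. The 3 GFP+ arrays lay below all 3 GFP- arrays for 12 members and above them for 1, Wnt5a, against 7.85% and 9.05% of all genes. The median difference was -0.19 for the 46 members and -0.05 for all genes. By day the members' median was -0.06, -0.09 and -0.49, against -0.01, -0.005 and -0.07 for all genes. The 20 members with a mean signal below the median of all probe sets had daily medians of -0.04, 0.002 and -0.53. All genes below it had -0.07, 0.01 and -0.25. The 26 members above it, which include the 7 that passed, had -0.27, -0.58 and -0.34. All genes above it had 0.10, -0.08 and 0.32. These RNAs come from sorted populations, in which fewer cells of a type and less RNA per cell cannot be told apart. The part of the radial glial and neuronal markers in the WNT differences was not tested. With 1 array per fraction on each day, the p-values rest on how much the difference varied from day to day. That spread was moderated by limma toward the one over all genes (2 residual degrees of freedom, 5.80 after moderation). Repeated cultures of a day were not measured. Wnt7b, Sfrp1 and Sfrp2 did not pass in a fit without the day block (adjusted p = 0.079, 0.065 and 0.230), and after median centring of each array none of the 7 passed (adjusted p = 0.098 to 0.143), with differences from -2.40 to -0.96. Over all genes 0 passed in either direction after that centring.

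**Figure D1:**
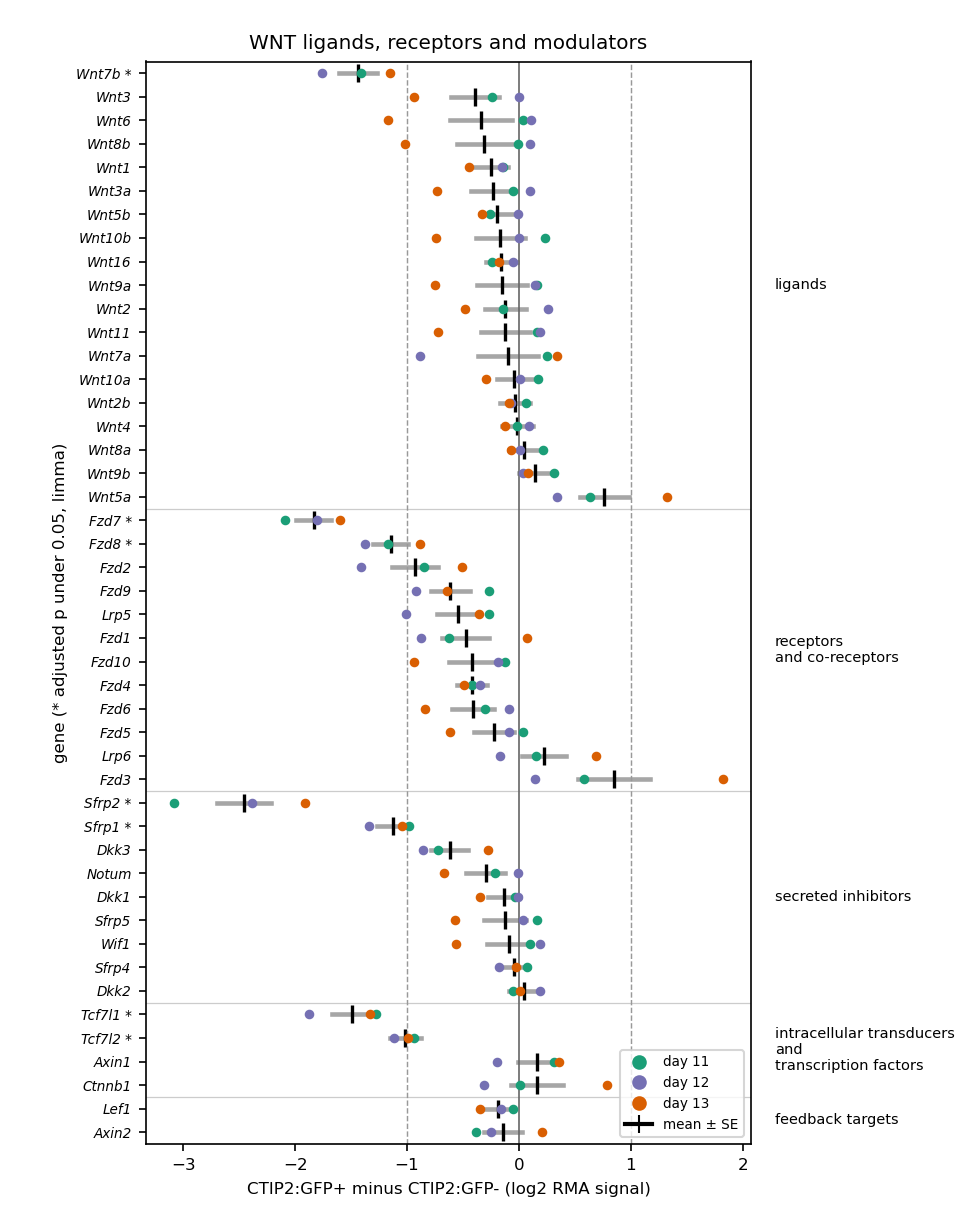
Log2 signal of CTIP2:GFP+ less that of CTIP2:GFP- cells (x axis) for the 46 measured WNT ligands, receptors and modulators (y axis, grouped by role). Coloured points are day 11, day 12 and day 13, black ticks with grey bars are the mean and its standard error from limma, and asterisks mark the 7 genes past the test. These 7 lie below -1, from Sfrp2 at -2.46 to Tcf7l2 at -1.01, while many ligands have their lowest point on day 13.

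Promoter sequence was looked at for the members that passed, since TCF/LEF factors bind DNA and Tcf7l1 and Tcf7l2 are among the 7. RefSeq promoter windows of assembly GRCm38.p6 were matched for 32 of the 47 members and for 4 of these 7. The 250 bases upstream of each start are printed 5′ to 3′ on the strand of the gene, at chr3:83766071-83766320 on the + strand for Sfrp2, chr1:59481897-59482146 on the + strand for Fzd7, chr6:72789046-72789295 on the - strand for Tcf7l1, and chr19:55741560-55741809 on the + strand for Tcf7l2 (the most upstream of its 2 windows). Capitals mark CTTTG or its reverse complement CAAAG, the 5-letter core of the longer motif below, which was chosen after the sequences were seen.
Sfrp2: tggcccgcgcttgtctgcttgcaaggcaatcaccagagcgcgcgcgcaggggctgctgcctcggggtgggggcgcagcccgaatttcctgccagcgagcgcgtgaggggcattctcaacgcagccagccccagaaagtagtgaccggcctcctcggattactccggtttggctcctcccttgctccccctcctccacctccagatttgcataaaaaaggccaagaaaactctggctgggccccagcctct
Fzd7: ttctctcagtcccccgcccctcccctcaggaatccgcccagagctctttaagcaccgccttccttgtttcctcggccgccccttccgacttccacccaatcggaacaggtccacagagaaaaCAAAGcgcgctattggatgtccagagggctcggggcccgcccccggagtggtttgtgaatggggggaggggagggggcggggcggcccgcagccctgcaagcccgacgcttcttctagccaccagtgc
Tcf7l1: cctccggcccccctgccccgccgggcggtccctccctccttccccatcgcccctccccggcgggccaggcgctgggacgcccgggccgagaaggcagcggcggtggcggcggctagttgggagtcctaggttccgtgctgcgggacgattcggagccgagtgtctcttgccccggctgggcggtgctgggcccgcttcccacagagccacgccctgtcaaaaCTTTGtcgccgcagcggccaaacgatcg
Tcf7l2: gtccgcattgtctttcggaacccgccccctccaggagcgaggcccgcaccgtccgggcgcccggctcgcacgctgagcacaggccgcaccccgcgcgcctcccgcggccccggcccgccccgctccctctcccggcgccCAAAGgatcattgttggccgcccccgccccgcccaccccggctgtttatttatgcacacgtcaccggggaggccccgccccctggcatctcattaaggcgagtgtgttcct
The core begins at position -128 from the start of Fzd7, at -28 for Tcf7l1 and at -111 for Tcf7l2, and these letters are not in the window of Sfrp2. It is present in at least 1 window of 15 of the 32 matched members, which have 41 windows, and in 48.6% of all 32851 windows of this length. Members are counted by gene and the shares by window, so the 2 are unlike units. The longer TCF/LEF motif CTTTGAT contains the core and was searched on both strands. It is in 3.21% of all windows, in at least 1 window of 2 matched members, Wnt5b and Wnt11, and in 0 of the 4 printed ones. A match is a description of the letters only.

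Among the ligands, Wnt7b stood below its GFP- partner on every day. Wnt7b, a ligand of the developing forebrain, had log2 signals of 6.99, 7.82 and 6.98 in GFP- cells on day 11, day 12 and day 13 and of 5.58, 6.06 and 5.83 in GFP+ cells. The 3 GFP+ values were the lowest of the 6 arrays, and the fractions did not overlap. Wnt7b was 2.71-fold lower in GFP+ cells (difference -1.44, SE 0.17, adjusted p = 0.031). Its close relative Wnt7a did not pass, with a difference of -0.10 and daily differences of 0.25, -0.88 and 0.34.

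Wnt5a was the one member whose GFP+ arrays all lay above the GFP- arrays, as they did for 9.05% of all genes. This ligand is known mostly for signalling that does not go through beta-catenin. Its signals were 5.66, 5.66 and 5.34 in GFP- cells and 6.29, 6.0 and 6.66 in GFP+ cells. The GFP+ array of day 13 was the highest and the GFP- array of the same day the lowest. The difference of 0.76 did not pass (SE 0.22, adjusted p = 0.169), and its daily values were 0.63, 0.34 and 1.32. Without day 12 it passed at 0.98 (adjusted p = 0.038), and without day 13 it was 0.49 (adjusted p = 0.217). In the fit without day 12, 930 of 19938 genes passed as higher, against 159 with all days.

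For Wnt3, a ligand of the canonical branch, the signals were 5.38, 5.06 and 6.07 in GFP- cells and 5.14, 5.06 and 5.14 in GFP+ cells. The GFP- array of day 13 was the highest and the other 5 arrays lay close together, with overlap between the fractions. The difference was -0.39 (adjusted p = 0.467). Wnt6 was at 5.21, 4.90 and 6.31 in GFP- cells and 5.24, 5.01 and 5.14 in GFP+ cells. Again only the GFP- array of day 13 stood out. The difference of Wnt6 was -0.34 with day 13 and 0.07 without it, and neither passed (adjusted p = 0.631 and 0.905). The difference of Wnt8b was likewise -1.02 on day 13 and -0.01 and 0.10 on day 11 and day 12. The remaining 14 ligands are Wnt1, Wnt2, Wnt2b, Wnt3a, Wnt4, Wnt5b, Wnt7a, Wnt8a, Wnt9a, Wnt9b, Wnt10a, Wnt10b, Wnt11 and Wnt16. None passed, and their differences ran from -0.25 for Wnt1 to 0.14 for Wnt9b. The median of the 19 ligands was -0.15, and without day 13 it turned to 0.05.

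Of the 12 receptors and co-receptors, 8 were lower in GFP+ cells on all 3 days and 1, Fzd3, was higher. Over all 19938 genes, 4272 were lower and 3379 higher on all 3 days. Among the 8 were Fzd7, Fzd8 and Fzd2, of which Fzd7 and Fzd8 passed. Fzd3 did not pass. Fzd7, a Frizzled receptor found on neural progenitors, had signals of 8.0, 8.08 and 7.42 in GFP- cells and 5.91, 6.27 and 5.82 in GFP+ cells. A gap of over 1 separated the lowest GFP- from the highest GFP+ array. It was 3.57-fold lower in GFP+ cells (difference -1.83, SE 0.16, adjusted p = 0.024).

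Fzd8, another Frizzled receptor of the forebrain, was at 6.79, 7.05 and 6.80 in GFP- cells and at 5.62, 5.68 and 5.91 in GFP+ cells. The fractions did not overlap, and the 3 arrays within each fraction were close to each other. It was 2.21-fold lower (difference -1.15, SE 0.16, adjusted p = 0.043). Fzd2 was at 7.24, 7.69 and 7.07 in GFP- cells and 6.39, 6.28 and 6.55 in GFP+ cells. Its fractions did not overlap either, with the smallest gap on day 13. The difference of -0.93 (SE 0.20) did not pass at an adjusted p of 0.101. It passed after quantile normalization (-1.06, adjusted p = 0.049) and when genes below the median signal were left out (adjusted p = 0.023). Over all genes, 113 of 19938 passed as lower in the main fit and 99 after quantile normalization. With that filter 337 of 10894 did.

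Fzd3, a receptor known for planar polarity and axon guidance, had signals of 7.95, 8.85 and 6.55 in GFP- cells and 8.53, 8.99 and 8.38 in GFP+ cells. The GFP- array of day 13 was the lowest by far, and the GFP- array of day 12 lay above 2 of the GFP+ arrays. The difference was 0.85 (SE 0.32, adjusted p = 0.293), with 0.58, 0.14 and 1.83 on the 3 days. It passed without day 12 (1.20, adjusted p = 0.032), a fit in which 930 of 19938 genes passed as higher. Without day 13 it was 0.36 (adjusted p = 0.417). The co-receptors Lrp5 and Lrp6, which pair with Frizzled in the canonical branch, had differences of -0.54 (adjusted p = 0.255) and 0.22 (adjusted p = 0.655). Lrp5, Fzd4 and Fzd9 were also without overlap between the fractions. The other receptors Fzd1, Fzd4, Fzd5, Fzd6, Fzd9 and Fzd10 did not pass, with differences from -0.61 for Fzd9 to -0.22 for Fzd5. The median over the 12 receptors and co-receptors was -0.45, and -0.49 without day 13.

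Among the secreted inhibitors, the calls fell on the pair Sfrp1 and Sfrp2, Frizzled-related proteins that bind WNT outside the cell and are known from cortical progenitors. Sfrp2 had the largest difference of any member. Its signals were 9.98, 11.20 and 8.73 in GFP- cells and 6.89, 8.82 and 6.82 in GFP+ cells. Both fractions were highest on day 12, and the GFP+ array of day 12 lay just above the GFP- array of day 13, so the fractions overlapped across days but not within a day. Sfrp2 was 5.50-fold lower in GFP+ cells (difference -2.46, SE 0.24, adjusted p = 0.025).

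Sfrp1 was at 9.82, 10.04 and 10.25 in GFP- cells and 8.84, 8.69 and 9.20 in GFP+ cells. The fractions did not overlap, and the daily differences of -0.98, -1.34 and -1.05 were close. It was 2.18-fold lower (difference -1.13, SE 0.15, adjusted p = 0.038). Dkk3, a divergent Dickkopf family member, had signals of 6.05, 6.08 and 5.70 in GFP- cells and 5.33, 5.23 and 5.42 in GFP+ cells. All GFP+ arrays were below all GFP- arrays, and the difference of -0.62 (SE 0.17) did not pass (adjusted p = 0.155). Notum, the esterase that removes the lipid from WNT proteins, was at 5.37, 4.91 and 5.79 in GFP- cells and 5.16, 4.90 and 5.12 in GFP+ cells. The fractions overlapped, with the GFP- array of day 13 the highest, and the difference was -0.30 (adjusted p = 0.508). Sfrp4, Sfrp5, Dkk1, Dkk2 and Wif1 did not pass and had differences from -0.13 for Dkk1 to 0.05 for Dkk2.

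**Figure D2:**
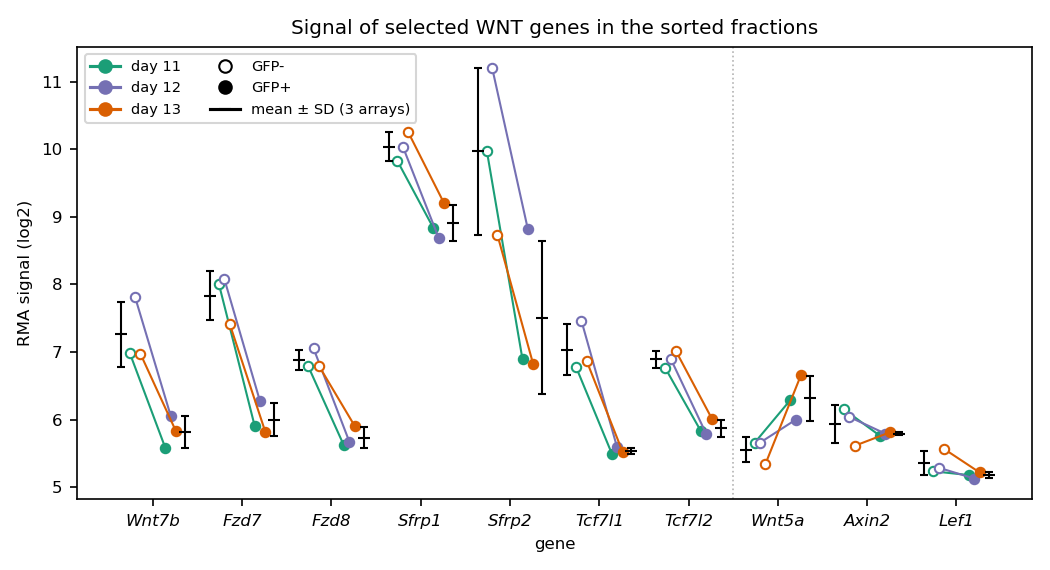
RMA signal (y axis, log2) of the 7 WNT genes past the test, left of the dotted line, and of Wnt5a, Axin2 and Lef1 (x axis). Open circles are CTIP2:GFP- and filled circles CTIP2:GFP+ arrays, lines join arrays of 1 day, and black bars show mean ± SD of 3 arrays. Every line of the 7 genes slopes down from GFP- to GFP+, that of Sfrp2 from 11.20 to 8.82 on day 12, while the lines of Axin2 go both ways.

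Of the genes that act inside the cell, the HMG-box factors Tcf7l1 and Tcf7l2 were lower in GFP+ cells and the beta-catenin and Axin1 genes did not pass. Tcf7l1, a TCF factor known mostly as a repressor, had signals of 6.78, 7.46 and 6.86 in GFP- cells and 5.50, 5.59 and 5.53 in GFP+ cells. The 3 GFP+ arrays lay within 0.1 of each other and far below the GFP- arrays. It was 2.82-fold lower (difference -1.50, SE 0.17, adjusted p = 0.031). Tcf7l2, a TCF factor that acts with beta-catenin, was at 6.76, 6.90 and 7.01 in GFP- cells and 5.83, 5.78 and 6.02 in GFP+ cells. The fractions did not overlap. It was 2.02-fold lower (difference -1.01, SE 0.14, adjusted p = 0.041), and without day 11 it did not pass (adjusted p = 0.053).

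Ctnnb1, which encodes beta-catenin, was at 9.32, 9.93 and 8.67 in GFP- cells and 9.32, 9.62 and 9.46 in GFP+ cells. The lowest and the highest arrays were both GFP-, and the difference was 0.16 (adjusted p = 0.776) with an interval of -0.42 to 0.74. Axin1, the scaffold of the complex that degrades beta-catenin, was at 6.95, 7.53 and 6.72 in GFP- cells and 7.26, 7.34 and 7.08 in GFP+ cells. Here too the GFP- arrays spanned the GFP+ arrays, and the difference was 0.16 (adjusted p = 0.702).

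The feedback targets Axin2 and Lef1, which the canonical branch is known to raise, did not pass. Axin2 had signals of 6.15, 6.04 and 5.61 in GFP- cells and 5.76, 5.80 and 5.82 in GFP+ cells. The GFP- arrays of day 11 and day 12 were above the GFP+ arrays and that of day 13 below them. The difference was -0.14 (SE 0.17, adjusted p = 0.728), with a 95% interval of -0.56 to 0.27. Lef1 was at 5.24, 5.29 and 5.57 in GFP- cells and at 5.18, 5.13 and 5.22 in GFP+ cells. Its mean signal, 5.27, was below the median of all probe sets, 5.41. The fractions did not overlap, by a margin of under 0.1, and the difference was -0.19 (SE 0.14, adjusted p = 0.602), with an interval of -0.54 to 0.16.

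Read day by day, 5 members were over 2-fold lower in GFP+ cells on day 11, 9 on day 12 and 7 on day 13, while 0, 0 and 2 were over 2-fold higher. The 2 were Fzd3 and Wnt5a. Over all genes the shares were 1.30% lower and 1.85% higher on day 11, 2.43% and 1.48% on day 12, and 2.29% and 9.18% on day 13. A slope of the difference per day was tested with limma for every gene. It passed for 0 of 19938 genes. The unadjusted p was under 0.05 for 108 of the 19938 genes and for 0 of the 46 members. It was also under 0.05 for 2 of the 59 other WNT genes described below, Apc2 and Celsr3.

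The GFP- array of day 13 was the highest of the 6 for 24 of the 46 members (52.2%), 12 of 19 ligands among them, and for 37.9% of all genes. It was the lowest for 6 members (13%) and for 31.2% of all genes. For 20 members the mean signal was below the median of all probe sets, 5.41, and 11 of these were ligands. Among these 20 the array was the highest for 17 (85%), against 65.4% of all genes below that median. None of the 46 had a mean below the 20th percentile, 4.65. The 7 members past the test all had means above the median. Over all genes, so did 112 of the 113 lower calls and all 159 higher calls. Without day 13 the differences of the 7 members ran from -2.74 to -1.03 and none passed (adjusted p = 0.052 to 0.068). Neither did any other of the 19938 genes.

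**Figure D3:**
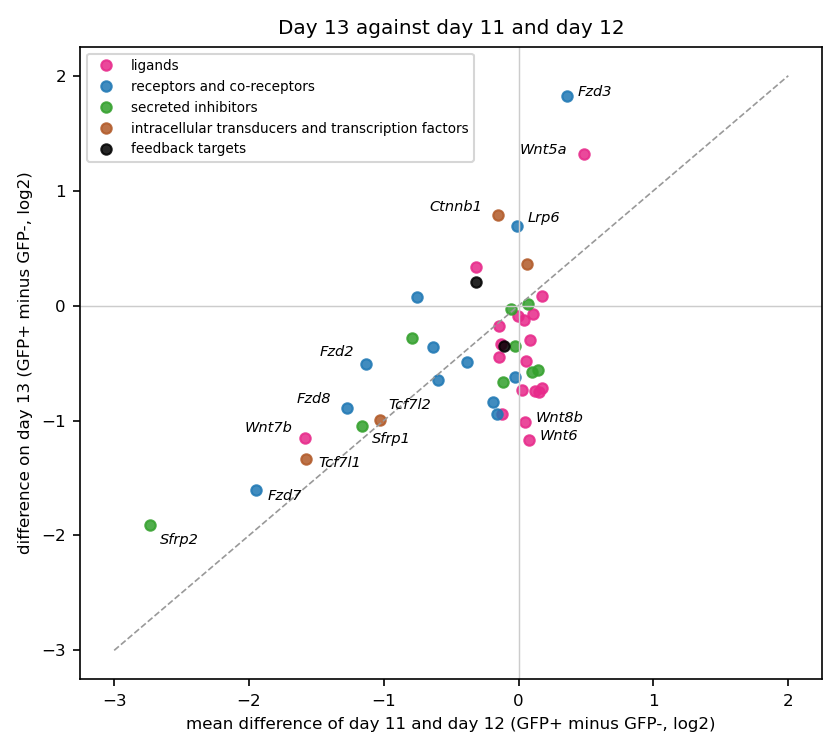
Log2 difference of GFP+ less GFP- signals on day 13 (y axis) against the mean difference of day 11 and day 12 (x axis, log2), 1 point for each of the 46 measured WNT genes, coloured by role. The dashed line marks equal values. The 7 genes past the test lie at the lower left, whereas Wnt6 and Wnt8b lie near 0 on the x axis and at -1.17 and -1.02 on day 13.

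The rest of the pathway was read from 59 other WNT genes, all measured. Only Ccnd1 passed, as lower in GFP+ cells, and 58 did not, where 0.567% of all genes passed as lower. At an unadjusted p under 0.05, 11 were higher and 12 lower, against 9.58% and 5.96% of all genes. Ccnd1, which encodes cyclin D1 and drives entry into the cell cycle, was at 8.51, 9.42 and 8.13 in GFP- cells and 6.49, 7.42 and 6.69 in GFP+ cells. The fractions did not overlap, and it was 3.52-fold lower (difference -1.81, SE 0.17, adjusted p = 0.025).

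Other pathway genes went both ways without passing. Lgr4 and Lgr5, receptors for the R-spondins that potentiate WNT signalling, had differences of -1.30 (adjusted p = 0.211) and -1.22 (adjusted p = 0.086). The daily values of Lgr4 were -2.24, -1.64 and -0.01, and those of Lgr5 were -1.08, -1.89 and -0.70. On day 13 Lgr4 was at 5.21 in GFP- and 5.20 in GFP+ cells, both below the median of all probe sets, 5.41. Nkd1, a Dishevelled-binding inhibitor, stood at -1.10 and just missed the threshold (adjusted p = 0.051). Apc2, the neuronal relative of APC, had a difference of 1.33 (adjusted p = 0.110), Celsr3, a planar polarity cadherin of growing axons, of 1.31 (adjusted p = 0.099), and Bcl9, a cofactor of beta-catenin, of 1.01 (adjusted p = 0.115). For all 3 the fractions did not overlap, as for 9 of the 59 genes on the higher side and 9.05% of all genes. Their largest daily difference was that of day 13, at 2.23, 2.15 and 1.44. On that day 9 of the 59 genes and 9.18% of all genes were over 2-fold higher. These 3 were named for having the largest upward differences of the 59.

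By group, 0 of 2 secretion genes, 0 of 9 potentiators and their receptors, 0 of 12 other receptors and planar polarity genes, 0 of 9 other inhibitors, 0 of 12 destruction complex and Dishevelled genes and 0 of 9 nuclear cofactors passed, with Ccnd1 the 1 of 6 other targets. Over all genes 0.567% passed as lower and 0.797% as higher. At those shares, 0 calls in so short a group does not show that it was unchanged. The median difference was -0.43 for the potentiators, with daily medians of -0.21, -0.20 and -0.70. It was -0.32 for the other inhibitors, with daily medians of -0.18, -0.13 and -0.69. For the destruction complex and Dishevelled genes it was 0.50, with daily medians of 0.39, 0.10 and 0.96. All 12 genes of the latter group had their lowest signal on the GFP- array of day 13, as did 31.2% of all genes and 53.4% of genes with a mean above the median of all probe sets. Wls and 3 R-spondins of these groups are also in the hem and choroid plexus list above.

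**Figure D4:**
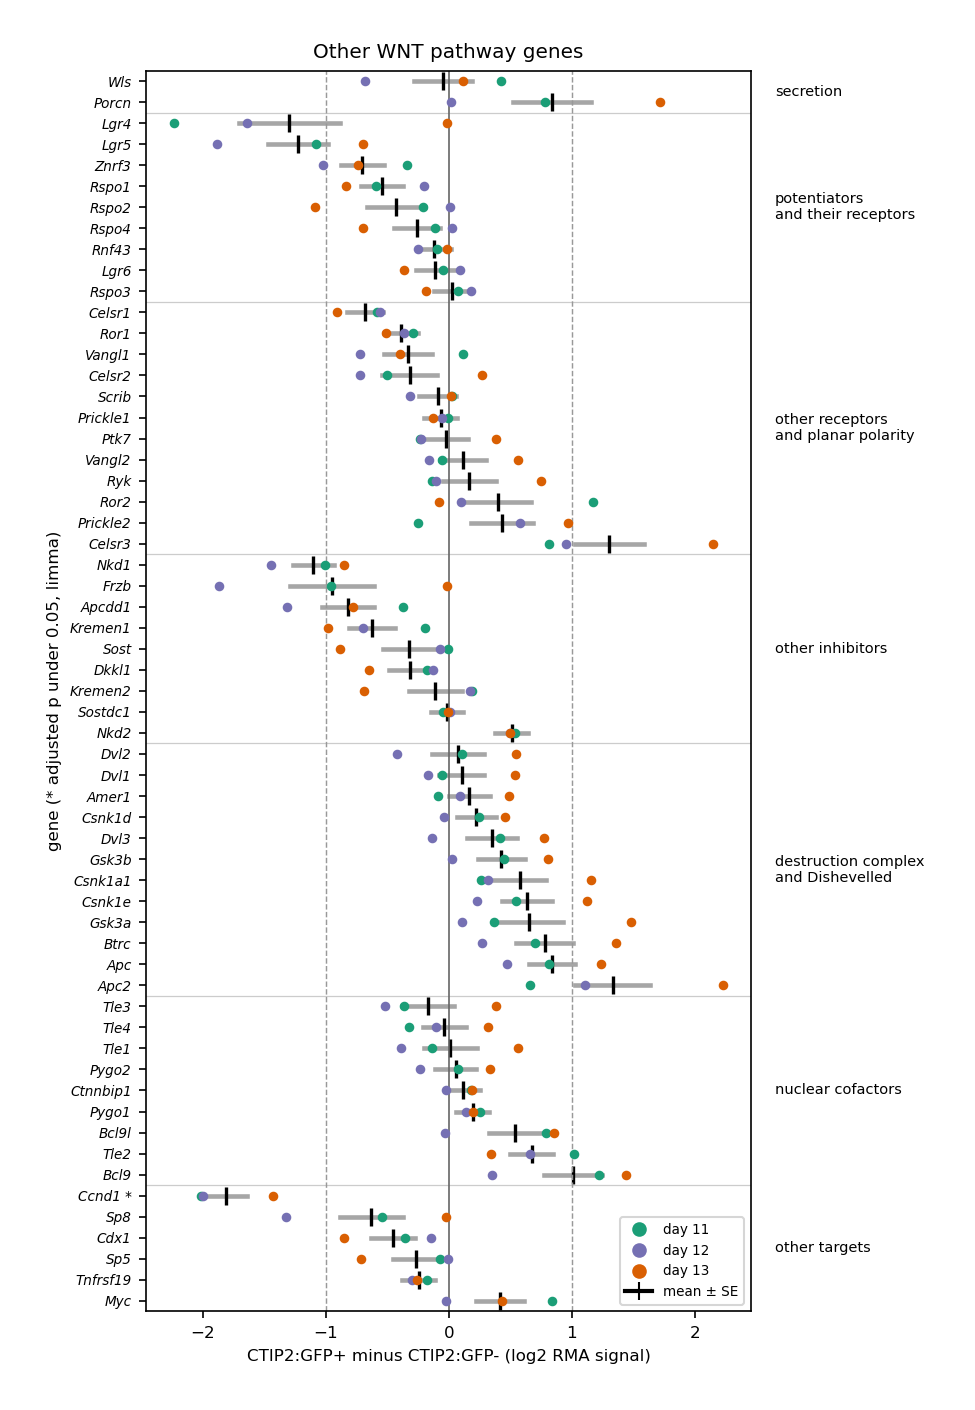
Log2 signal of CTIP2:GFP+ less that of CTIP2:GFP- cells (x axis) for 59 further WNT pathway genes (y axis, grouped). Coloured points are day 11, day 12 and day 13, black ticks with grey bars are the mean and its standard error from limma, and the asterisk marks Ccnd1, the gene past the test at -1.81. The day 13 points of the destruction complex and Dishevelled genes lie to the right of the others.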

How the data were processed

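The deposited table holds log2 probe set signals that the authors calculated with RMA16 in GeneSpring from 6 GeneChip Mouse Gene 1.0 ST arrays. The sources used here do not give the annotation version, any filter, or whether the arrays were normalized jointly. Array medians were 5.32 to 5.52. Each gene was represented by its probe set with 1 symbol and the highest mean, which gave 19938 genes from 28853 probe sets, and Entrez IDs of 46 members matched RefSeq with 0 symbols changed. limma 3.58.1 (R 4.3.3) took fraction and day as terms, with 2 residual degrees of freedom (5.80 after eBayes moderation), Benjamini-Hochberg adjustment across the 19938 genes and 0.05 as threshold. Intervals are 95%. A fraction by day slope was also fitted. The study's text names Student's test for experiments in general and no test for the arrays. The day in the labels pairs the fractions, and after each fraction's mean was subtracted, the arrays of day 11, day 12 and day 13 correlated with their partners at 0.112, 0.558 and 0.368. For the day 11 GFP+ array the day 13 GFP- array gave 0.297. Precision is limited by the number of arrays.

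Values in every array are given for members past the test or over 2-fold, then for those with the largest differences until each role had 4, and for Axin2 and Lef1. Of the other pathway genes, those past the test and the 3 largest differences each way are named. The members, the lists and these rules were chosen with earlier results of these data known. The analysis was repeated with no day term, with each day left out, with neither a day term nor the day 13 GFP- array, and with median centring, quantile normalization, the mean of probe sets, filters at the 20th percentile and at the median, trended robust eBayes and the methods' t-test. The fits were tested on simulated data. Promoter windows came from RefSeq on GRCm38.p6. Figures were drawn with matplotlib 3.10.9.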

Additional observations from a re-analysis of the deposited data

How the results depend on the processing

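Over the alternatives and the 46 members, 536 values kept their side of the threshold, 30 fell short of it, 12 came past it and none of the called values changed sign. With no replicate block for the day, 4 members were lower (Fzd7, Fzd8, Tcf7l1 and Tcf7l2), and over all genes 41 were lower and 84 higher in place of 113 and 159. Leaving out each day in turn gave 0 to 7 members lower and 0 to 2 higher, 0 to 1 over 2-fold higher, and 0 to 229 genes lower and 0 to 930 higher. Without day 13, 0 members and 0 genes passed in either direction. After median centring 0 members passed, with adjusted p from 0.098 to 0.143 for the 7, and 0 genes in either direction. After quantile normalization 6 of the 7 were kept, Tcf7l2 was lost (adjusted p = 0.069), and 52 genes were higher. A filter at the 20th percentile of signal gave 221 genes lower and 375 higher. A filter at the median gave 337 and 693, and with fewer genes left the median of the secreted inhibitors was -1.13. A trended and robust eBayes gave 510 and 549, with 1 member higher, Wnt5a, and with Fzd2 and Dkk3 added to the 7. The methods' t-test gave 0 members and 0 genes in either direction after Benjamini-Hochberg, and without adjustment 790 genes lower and 966 higher, with 1 member higher. Both filters, the trended fit and averaging of probe sets kept all 7 calls. The slope test with day as a factor called 7 genes, 0 of them members. Causes were not tested. Each fraction has 3 arrays from consecutive days, and 11 of 19 ligands had mean signals below the median of all probe sets.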

Other observations

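Genes in this section were picked after their values were seen. Frzb, the remaining secreted Frizzled-related gene on the array, had daily differences of -0.96, -1.87 and -0.01 (mean -0.95, adjusted p = 0.265, limma). Its signals were 5.86, 6.90 and 4.86 in GFP- cells and 4.90, 5.03 and 4.85 in GFP+ cells. It was thus lower like Sfrp1 and Sfrp2 on day 11 and day 12. On day 13 both arrays were dim, below the median of all probe sets, 5.41. The related inhibitors Nkd1 and Nkd2 had mean differences of opposite sign. Nkd2 was at 0.54, 0.50 and 0.50 on the 3 days (mean 0.51, adjusted p = 0.144) and Nkd1 at -1.0, -1.45 and -0.85 (mean -1.10, adjusted p = 0.051), and the difference between them was not tested. Porcn, which encodes the acyltransferase that lipidates WNT proteins, was at 0.78, 0.02 and 1.72 (mean 0.84, adjusted p = 0.287).

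Wnt4 was the one member with more than 1 probe set. The brighter one, used above, had daily differences of -0.01, 0.09 and -0.13. The dimmer one had -0.23, -0.13 and -1.39, with a signal of 6.49 on the GFP- array of day 13 and 4.91 to 5.35 on the other 5 arrays.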
